A study of Mus musculus with 12 samples.

Results

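Tetraspanins are small proteins that span the cell membrane several times and gather partner proteins, such as integrins and immunoglobulin-type receptors, into membrane microdomains known as the tetraspanin web. In the brain, Tspan2 is found mainly in oligodendrocytes, the cells that make myelin, while Cd9 and Cd82 are also made by oligodendrocytes and their late precursors, and Cd81, Cd63 and Cd151 are made by many cell types. Jam3 is a junctional adhesion molecule, an immunoglobulin-type protein of cell contacts that is not a tetraspanin. The genes described here are Cd9, Cd82, Tspan2, Cd81, Cd63, Cd151, Tspan7 and Jam3, a list of 8 genes given by name, chosen with earlier results of these data known, of 17656 named genes measured on the arrays. Of the 8 genes, 7 were measured, 6 tetraspanins and Jam3, each by 1 probe set that was above the noise level on all 12 arrays. Tspan7, a tetraspanin of neurons, had no probe set annotated to it alone and was not analysed here.

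The array experiment set 6 male wild type C57BL/6 mice exposed to chronic social defeat (CSD) against 6 homecage (HC) mice of the same strain, with 1 array of medial prefrontal cortex (mPFC) tissue per mouse. CSD mice lived for 14 days behind a perforated partition beside an aggressive CD-1 male, met it for 5 min each day, and were sampled 24 h after the last defeat, while HC mice lived in groups. The stressed cohort had been admitted on its behaviour, the mice were adult with no age given in the sources used here, and blood was flushed out with saline before the tissue was cut along the forceps minor, a white matter tract. All values are log2 intensities, on which a difference of 1 is a doubling. The array medians lay between 7.50 and 7.69, and a log2 value of 5.75 was taken as the noise level. HC replicates 2 and 6 received the lowest array weights, 0.259 and 0.397. The differences of the members, and some of the correlations, are given with and without them. The markers of neurons averaged 12.05 to 12.14 on the CSD arrays and 12.11 to 12.18 on the HC arrays, well above the noise level.

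The promoters of the members that the results turn on are shown as a description of their sequence. They are the 250 bases before the annotated start, from RefSeq on mouse build GRCm38.p6, printed 5′ to 3′ on the strand of the gene. Cd9 lies on chromosome 6 on the minus strand (chr6:125494761-125495010), Cd82 on chromosome 2 on the minus strand (chr2:93462951-93463200, the first of 4 starts), Tspan2 on chromosome 3 on the plus strand (chr3:102734520-102734769, the first of 2 starts) and Cd81 on chromosome 7 on the plus strand (chr7:143052500-143052749). Capitals mark matches on either strand to the GC box GGGCGG or to the E box CAGCTG.
Cd9: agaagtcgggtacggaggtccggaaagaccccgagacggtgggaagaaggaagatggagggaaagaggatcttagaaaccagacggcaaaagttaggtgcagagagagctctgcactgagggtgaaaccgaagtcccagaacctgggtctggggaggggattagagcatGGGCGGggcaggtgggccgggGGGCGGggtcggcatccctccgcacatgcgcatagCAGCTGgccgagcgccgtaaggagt
Cd82: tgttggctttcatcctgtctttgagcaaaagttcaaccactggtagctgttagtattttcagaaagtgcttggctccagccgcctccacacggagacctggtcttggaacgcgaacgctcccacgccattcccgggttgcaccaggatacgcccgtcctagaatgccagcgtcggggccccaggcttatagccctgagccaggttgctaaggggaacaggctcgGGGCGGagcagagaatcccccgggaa
Tspan2: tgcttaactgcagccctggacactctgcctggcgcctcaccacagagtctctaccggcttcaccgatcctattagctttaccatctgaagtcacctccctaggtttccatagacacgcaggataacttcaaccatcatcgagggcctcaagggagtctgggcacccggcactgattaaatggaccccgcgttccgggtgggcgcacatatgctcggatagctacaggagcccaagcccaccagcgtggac
Cd81: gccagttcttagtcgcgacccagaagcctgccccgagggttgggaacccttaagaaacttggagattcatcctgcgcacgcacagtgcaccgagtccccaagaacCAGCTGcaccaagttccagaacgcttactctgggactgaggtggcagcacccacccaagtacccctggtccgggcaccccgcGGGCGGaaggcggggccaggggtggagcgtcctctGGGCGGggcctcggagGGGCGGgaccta
The Cd9 promoter held 2 GC boxes and 1 E box, that of Cd81 3 GC boxes and 1 E box, and the printed Cd82 window 1 GC box, while the printed Tspan2 window held neither. Of the other Cd82 windows, window 2 held 1 GC box, and windows 3 and 4 held neither motif. Among 32851 promoters of the same length, 32.7% held the GC box and 13.0% the E box. A Sox-type motif (ACAAAG, in 16.5% of promoters) was present in the Cd63 window and in the other Tspan2 window, and the TATA box (TATAAA, in 12.4%) in no window of the 7 members with an entry. A match is a description of letters and not a binding site, and a link between a match and a difference between the groups was not tested. GC content of these windows ran from 48.8% in Cd63 to 69.2% in Tspan7, against a median of 52.4% over all promoters.

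All 7 measured genes had a lower mean in CSD than in HC mice, and none passed the adjusted test. Of the 29838 probe sets kept, 0 (0%) passed an adjusted p under 0.05 with a fold change of at least 1.2 in limma, with 2516 at an unadjusted p under 0.05. The methods' t-test also called 0, with 2214 at an unadjusted p under 0.05. The description therefore rests on the values of each array, on unadjusted p-values and on exact permutation tests over the 12 arrays (two-sided, 924 assignments of arrays to groups, smallest possible p = 0.00216). Tspan2, Cd82 and Cd9 had the largest differences, and Cd63, Cd151, Jam3 and Cd81 differed by less. The paper already lists Tspan2, Cd82 and Cd9 among its lowered genes from these same arrays. In tissue RNA, fewer cells of a type and less RNA per cell cannot be told apart.

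Tspan2, the tetraspanin of oligodendrocytes (chromosome 3), had the lowest value of 9.81, a median of 9.98 and a highest value of 10.30 on the 6 CSD arrays. The 6 HC arrays ran from 10.26 through a median of 10.63 to 10.79. The groups overlapped only through HC replicate 2, the lowest HC array, and 4 of 6 CSD arrays lay below every HC array. The mean was 10.04 ± 0.22 in CSD and 10.58 ± 0.22 in HC mice (SD, n = 6 each), a difference of −0.54 ± 0.12 (SE) with a 95% interval from −0.80 to −0.29, or 1.46-fold lower in CSD. The exact permutation test gave p = 0.00649, and limma an adjusted p = 0.171. Without HC replicates 2 and 6 the difference was −0.57.

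Cd82, a tetraspanin that holds receptors and integrins in the web, ran from 9.27 through 9.37 to 9.50 on the CSD arrays. The HC arrays ran from 9.51 through 9.71 to 9.87. Every CSD array lay below every HC array, by a gap of only 0.01 between CSD replicate 7 and HC replicate 1. The difference was −0.33 ± 0.06 (SE), 1.25-fold lower in CSD, with a 95% interval from −0.46 to −0.19, an exact permutation p = 0.00216 and an adjusted p = 0.132 in limma. It was −0.27 without HC replicates 2 and 6.

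Cd9, a partner of immunoglobulin-type proteins and integrins that is also used as an oligodendrocyte lineage marker, ran from 7.9997 through 8.32 to 8.43 on the CSD arrays. The HC arrays ran from 8.46 through 8.57 to 8.72. The groups did not overlap, with a gap of 0.03, and CSD replicates 9 and 10 stood below the other CSD arrays, at 8.10 and 7.9997. The difference was −0.32 ± 0.08 (SE), 1.25-fold lower in CSD, with a 95% interval from −0.49 to −0.15, an exact permutation p = 0.00216 and an adjusted p = 0.211 in limma. It was −0.26 without HC replicates 2 and 6, the 2 highest HC arrays for this gene.

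Cd81, a close relative of Cd9, differed little. Its CSD arrays ran from 12.77 through 12.86 to 12.90 and its HC arrays from 12.87 through 12.93 to 12.95. The lowest CSD array was replicate 9, and 4 of 6 CSD arrays lay below every HC array. The difference was −0.07 ± 0.03 (SE), with a 95% interval from −0.14 to −0.002, an exact permutation p = 0.0108 and an adjusted p = 0.576 in limma. Its unadjusted p, 0.0452 in limma, was under 0.05 in only 8 of 24 other settings. Without HC replicates 2 and 6 the difference was −0.06.

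The per-array difference between Cd9 and Cd81 compares the measured differences of the 2 relatives, without setting one probe set's level against the other. Cd9 minus Cd81 averaged −4.59 ± 0.16 in CSD and −4.34 ± 0.09 in HC mice (SD, n = 6 each), and 5 of 6 CSD arrays lay below every HC array. The difference of −0.25 gave an exact permutation p = 0.00433, and without HC replicates 2 and 6 it was −0.20 with an exact permutation p = 0.0286. The genes were chosen with earlier results of these data known, and the paper lists Cd9 but not Cd81 among its lowered genes. These values therefore describe these arrays and are no independent evidence that the 2 genes differed by unequal amounts. Cd81 was bright on every array, at 12.77 to 12.95, where an array can respond less than in proportion to RNA, and the part of this in the small Cd81 difference was not tested. A planned pair of Tspan2 and Tspan7 was not run, since Tspan7 was not measured.

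Cd63 (chr10:128896231-128912822 on GRCm38.p6), a tetraspanin of late endosomes, lysosomes and exosomes, ran from 8.25 through 8.43 to 8.54 in CSD and from 8.404 through 8.56 to 8.95 in HC mice. The highest HC array was replicate 2, at 8.95, and the groups overlapped. The difference was −0.17 ± 0.09 (SE), with a 95% interval from −0.36 to 0.02, an exact permutation p = 0.0887 and an adjusted p = 0.655 in limma. Without HC replicate 2 it was −0.10, and without HC replicates 2 and 6 together −0.09. Without HC replicate 4, the lowest HC array for this gene, it was −0.21.

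Cd151 (chr7:141467362-141471481), which associates with laminin-binding integrins, ran from 8.45 through 8.59 to 8.71 in CSD and from 8.51 through 8.70 to 8.78 in HC mice. Its groups overlapped, with CSD replicate 10 lowest and HC replicate 6 highest. The difference was −0.11 ± 0.05 (SE), with a 95% interval from −0.23 to 0.004, an exact permutation p = 0.0714 and an adjusted p = 0.620 in limma. It was −0.07 without HC replicates 2 and 6, and −0.15 without HC replicate 5, the lowest HC array for this gene.

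Jam3 (chr9:27097384-27155421), whose protein joins cells at tight junctions and at other contacts, ran from 7.63 through 7.83 to 8.002 in CSD and from 7.80 through 7.87 to 7.98 in HC mice. The groups overlapped widely, and CSD replicates 9 and 10, both at 7.63, were the lowest arrays of all. The difference was −0.08 ± 0.06 (SE), with a 95% interval from −0.21 to 0.06, an exact permutation p = 0.277 and an adjusted p = 0.822 in limma. Leaving out CSD replicate 9 gave −0.04, as did leaving out CSD replicate 10, or HC replicates 2 and 6 together. Leaving out CSD replicate 7, the highest CSD array for this gene, gave −0.12.

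**Figure D1:**
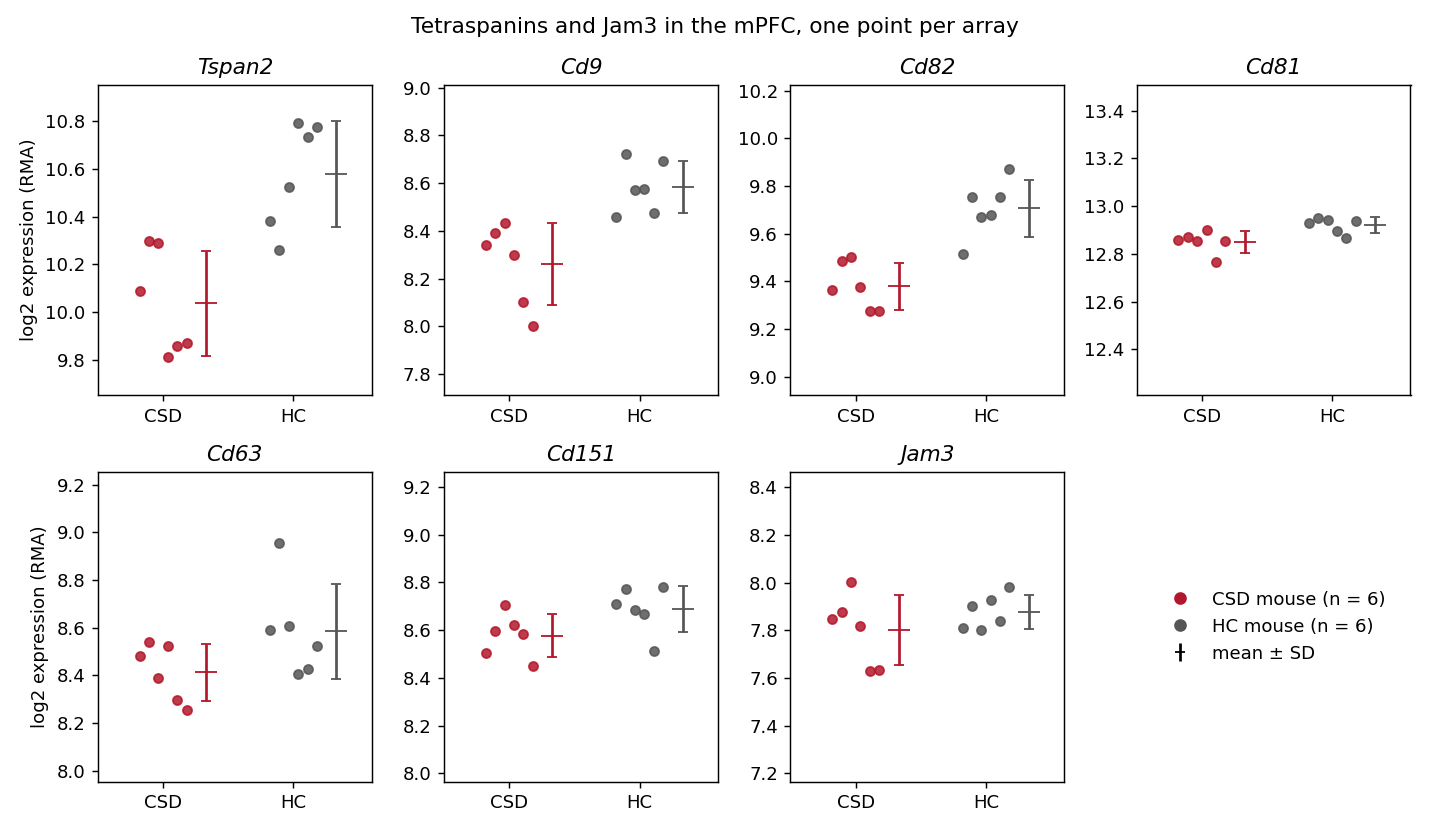
Log2 expression of the 7 measured genes on each array, with CSD left and HC right, the bar giving the mean ± SD of 6 mice and every panel spanning the same number of log2 units. Cd9 and Cd82 show no overlap of groups, Tspan2 overlaps through HC replicate 2, and the Cd81 arrays lie close together.

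By unadjusted p under 0.05 in limma, 4 of the 7 genes were lower in CSD (Tspan2, Cd82, Cd9 and Cd81), against 1151 of 17656 named genes (6.52%), and 0 were higher, against 334 (1.89%). With a fold change of at least 1.2, 3 of the 7 were lower, against 106 named genes (0.600%), and in 2 of the 7 the highest CSD value lay under the lowest HC value, against 165 (0.935%). Since the genes were chosen with results of these arrays known, these counts are a description and no independent evidence of a direction. The median difference over the 7 genes was −0.17, beside −0.01 over all named genes, of which 57.1% had a lower mean in CSD. The count of lower members at an unadjusted p lay between 3 and 6 over 24 other settings, with 6 when HC replicate 5 was left out, and 3 without HC replicates 2 and 6.

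Ranked within the CSD group alone, the same arrays were often low in these genes. How often they rank low over all named genes was not counted. CSD replicate 10 was the lowest CSD array in 4 of the 7 genes and replicate 9 in 2, and each was among the lowest 2 in 6 of 7. For Tspan2, the gene with the largest difference, the lowest was replicate 8. CSD replicate 6 was among the highest 2 CSD arrays in 6 of 7 genes, and replicate 7 in 5. Among HC arrays, replicates 2 and 6 were each highest in 3 genes.

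Of 25 other tetraspanins listed, 22 were measured, 14 with a lower and 8 with a higher mean in CSD, at a median difference of −0.01. Of all named genes, 57.1% had a lower mean. At an unadjusted p under 0.05, 3 of the 22 were lower and 2 higher, where 6.52% of all named genes were lower and 1.89% higher, and none reached a fold change of 1.2. Tspan15, a tetraspanin that binds the protease Adam10, ran from 7.77 through 8.06 to 8.11 in CSD and from 8.14 through 8.23 to 8.35 in HC mice. Its groups did not overlap, and the difference was −0.23 ± 0.06 (SE, exact permutation p = 0.00216, limma adjusted p = 0.235). Tspan13 ran the other way, with 12.36 through 12.43 to 12.46 in CSD and 12.26 through 12.33 to 12.38 in HC mice, a difference of 0.10 ± 0.03 (SE, exact permutation p = 0.00433, limma adjusted p = 0.427). The remaining 3 were Tspan4 (−0.15), Tspan18 (−0.16) and Tspan10 (0.08), named after their values were seen.

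**Figure D2:**
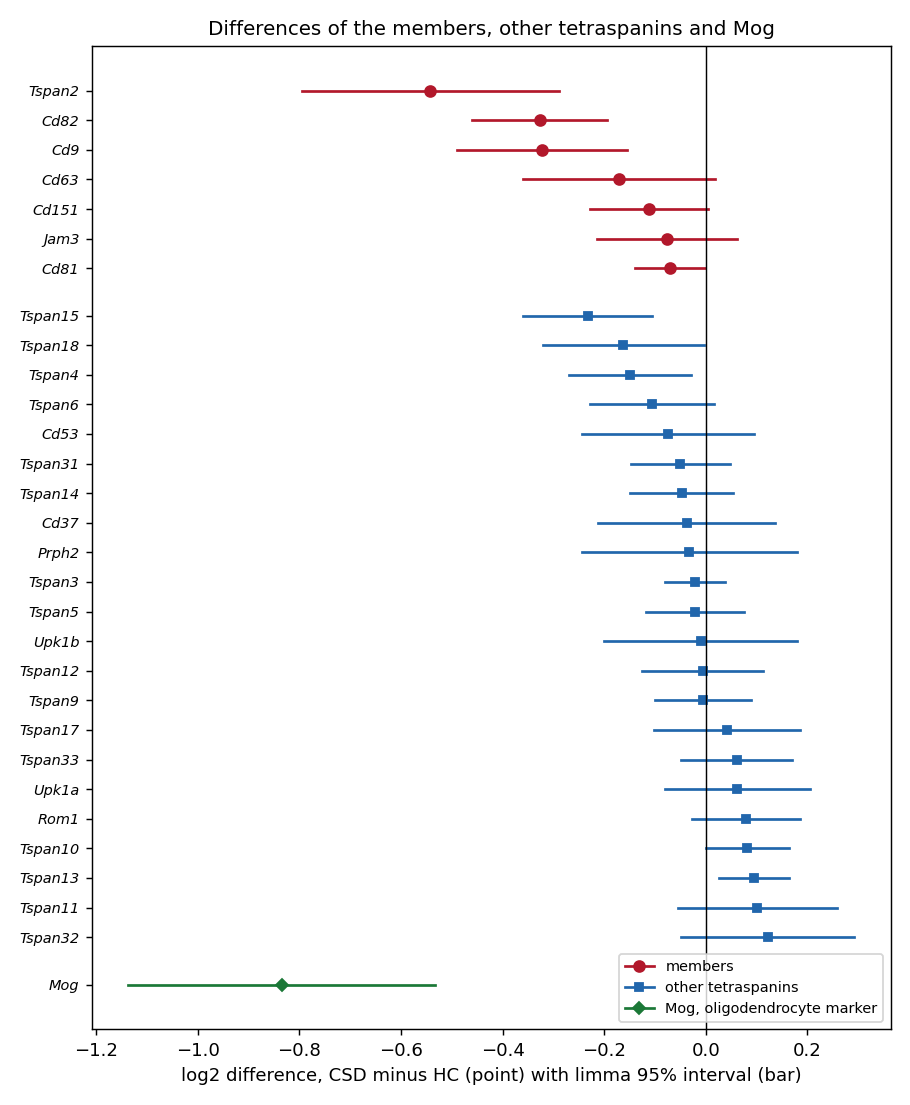
CSD minus HC differences in log2 units with 95% limma intervals for the 7 members (circles), 22 other tetraspanins (squares) and Mog (diamond). The 3 largest members lie left of all other tetraspanins, and Mog lies further left at −0.84.

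Lists of genes that work with these proteins were read beside all named genes, of which 6.52% were lower and 1.89% higher at an unadjusted p under 0.05. Of 14 partners of the tetraspanin web, among them integrin subunits and Adam10, 0 had an unadjusted p under 0.05 in either direction, and the median difference was −0.02. In lists this short a count of 0 is near those shares and is no result about the partners. The 2 with the smallest p were Itga6, the laminin receptor subunit alpha 6, at −0.13 ± 0.06 (SE) and Cd46 at 0.15 ± 0.11 (SE), with limma adjusted p = 0.627 and 0.781. Of 13 measured junctional adhesion molecules and partners, 0 passed, with Jam2, the relative and binding partner of Jam3, at −0.11 ± 0.05 (SE) and Clmp at −0.13 ± 0.07 (SE).

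Of 12 genes of endosomal vesicles that carry Cd63, 11 had a lower mean in CSD, as did 57.1% of all named genes, and the median was −0.04. Only 1 was lower at an unadjusted p under 0.05, a share near the 6.52% of all named genes. That gene was Vps4a, an ATPase of the sorting machinery, at −0.08 ± 0.03 (SE, limma adjusted p = 0.521), and Flot2 came next at −0.12 ± 0.06 (SE, limma adjusted p = 0.595). Of 11 measured laminin receptors, integrins and related genes of glia, 0 passed, with the laminin gene Lama2 at −0.14 ± 0.07 (SE) and Itga2 at 0.12 ± 0.08 (SE). No measured gene of these partner lists reached a fold change of 1.2 at an unadjusted p under 0.05.

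Markers of mature oligodendrocytes were lower on the same arrays. All 11 measured markers of 12 listed were lower at an unadjusted p under 0.05 with a fold change of at least 1.2, against 0.600% of all named genes. The list was chosen with earlier results of these data known, so the count is a description. The median difference was −0.58, and the mean level of the markers ran from 9.18 to 9.73 over the CSD arrays and from 9.74 to 10.34 over the HC arrays. Mog, a myelin surface protein, ran from 8.53 through 8.84 to 9.26 in CSD and from 9.45 through 9.74 to 9.97 in HC mice, a difference of −0.84 ± 0.14 (SE, exact permutation p = 0.00216, limma adjusted p = 0.0986). The part of this in the differences of Tspan2, Cd82 and Cd9 was not tested.

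Markers of the other cell types showed few differences at an unadjusted p under 0.05, where 6.52% of all named genes were lower. The gene named for each list is the one with the smallest p. Of oligodendrocyte precursor markers 2 of 8 were lower (Lhfpl3 at −0.13), but the means were lower in 4 and higher in 4, at a median difference of 0.003. Of astrocyte markers 1 of 8 was lower (Aqp4 at −0.18), of microglia markers 1 of 7 (P2ry12 at −0.14) and of endothelial markers 1 of 7 (Tek at −0.21, with no overlap of groups). The medians of these lists were −0.03, −0.04 and −0.05. For pericytes (Pdgfrb at −0.04), meningeal fibroblasts (Col3a1 at 0.10), neurons (Rbfox3 at −0.05) and choroid plexus (Clic6 at −0.11) the count was 0. Of 4 red blood cell markers only Alas2 was measured (0.14).

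The genes differed in which cell markers they followed within groups. Correlations of deviations from the group means over 12 arrays are given as descriptions, since the values come from the same arrays. Tspan2 followed the mean of the oligodendrocyte markers at r = 0.96 (0.94 within CSD and 0.98 within HC arrays). Cd82 and Jam3 followed it at r = 0.65 each, Cd9 at 0.47, Cd151 at 0.09, Cd81 at −0.16 and Cd63 at −0.33. For Cd9 it was 0.86 within CSD and 0.02 within HC arrays, and 0.70 without HC replicates 2 and 6. For Cd63 it was 0.58 within CSD and −0.80 within HC arrays, and 0.03 without HC replicates 2 and 6. The negative value of Cd63 was thus found in the HC arrays alone and not without those 2 arrays. Without them Cd82 stood at 0.78, Jam3 at 0.73, Cd151 at 0.15, Cd81 at −0.12 and Tspan2 at 0.95.

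Cd63 followed the microglia markers at r = 0.90, and Cd151 the markers of pericytes and smooth muscle at 0.84 and of endothelium at 0.78. Without HC replicates 2 and 6 these were 0.84 for Cd63 with microglia and 0.83 for Cd151 with pericytes and smooth muscle. Cd9 followed microglia at 0.71 and endothelium at 0.69, besides oligodendrocytes. Cd81 reached 0.59 with microglia and 0.56 with astrocytes. Besides oligodendrocytes, Jam3 followed endothelium at 0.60 and Cd82 at 0.55, or at 0.61 and 0.44 without HC replicates 2 and 6.

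**Figure D3:**
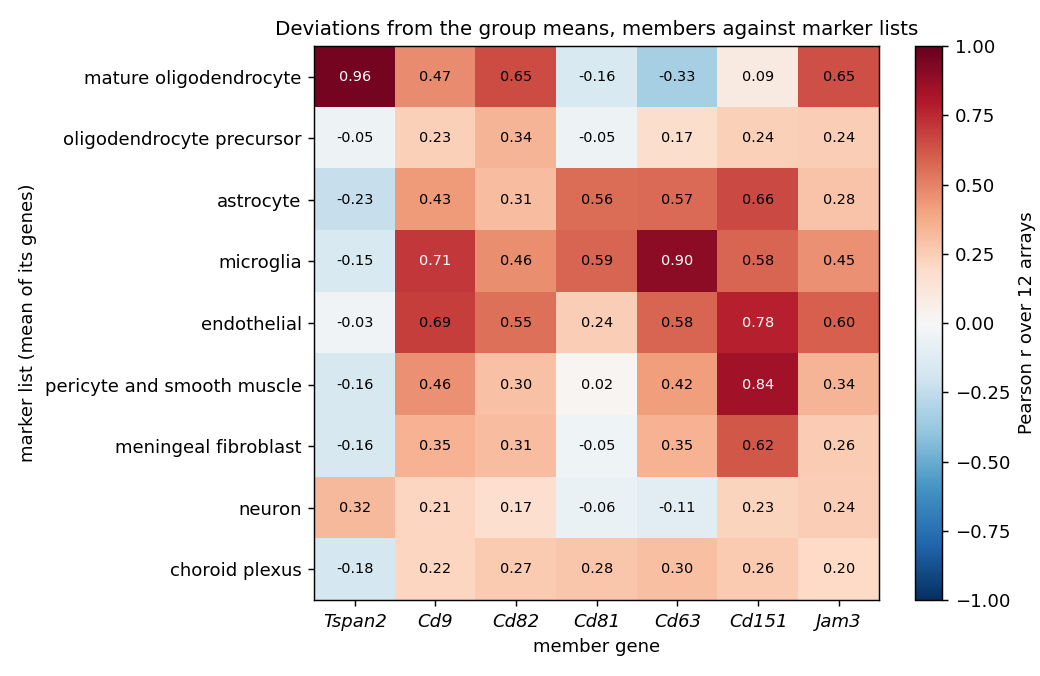
Pearson r between the deviations from group means of each measured gene and of the mean of each marker list, over 12 arrays (6 CSD and 6 HC), as a description. Tspan2 has its highest r with oligodendrocytes (0.96), Cd63 with microglia (0.90) and Cd151 with pericytes and smooth muscle (0.84).

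Among the members themselves, 18 of 21 pairs had a positive r, with a median of 0.49. The share of positive pairs among all named genes was not computed, so this count is a description only. The highest was Cd9 with Jam3 at 0.90, followed by Cd82 with Jam3 and with Cd9 at 0.78 each. The lowest was Tspan2 with Cd63 at −0.39, which was 0.40 within CSD, −0.87 within HC arrays and −0.04 without HC replicates 2 and 6.

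The named genes whose deviations were most like those of Tspan2, among 17655, were Cnp, Mog and Mal, all oligodendrocyte genes, at r = 0.96, 0.96 and 0.95. For Cd9 they were Adck1 (0.96), Rtl8c (0.93) and Coq10a (0.92), none of which is on the oligodendrocyte list, and their differences between groups were −0.01, −0.05 and −0.08. For Jam3 they were Klf7 (0.91), Cd9 (0.90) and Cers2 (0.89), the last a ceramide synthase at −0.34. These are the leading values of a search over all named genes.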

How the data were processed

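Expression was measured in the mPFC of 6 CSD and 6 HC mice on Affymetrix Mouse Gene ST arrays, 1 per mouse. The values deposited by the authors are on the log2 scale and come, by the submitters' processing notes, from RMA run in Affymetrix Expression Console (versions not given in the sources used here). RMA corrects background, normalizes between arrays and summarizes probe sets, and it can compress fold changes. The methods keep probe sets with a value above system noise and raise lower values to it. No noise value is given, and a value at percentile 20 of the whole table stood in for it, leaving 29838 of 35556 probe sets, with 4.67% of their values raised. The brightest probe set with 1 gene stood for the gene. CSD minus HC was fitted in limma 3.58.1 under R 4.3.3 (two-sided, Benjamini-Hochberg over all kept probe sets). No other columns of samples were present. Array number limits the precision. Replicates are separate mice.

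The members and gene lists were chosen with earlier results of these data known. Genes were named by a rule: all members, in each partner list those at an unadjusted p under 0.05 with a fold change of at least 1.2 or otherwise the 2 with the smallest p, Mog, 1 marker of each other cell type, and the 3 genes most like Tspan2, Cd9 and Jam3. The test was tried on simulated data. Promoters came from RefSeq (GRCm38.p6). Alternatives were the methods' t-test, filters, noise level, scaling, spread, the replicate block and leaving out arrays. Figures used matplotlib 3.10.9.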

Additional observations from a re-analysis of the deposited data

Results flagged for a closer look

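The values of 2 arrays stood apart from the other arrays of their group, of 16 groups examined, where chance marks about 1 in 20. Cd81 on CSD replicate 9 was 12.77 with the nearest CSD array at 12.85, a gap of 0.655 of the range of the group. Cd63 on HC replicate 2 was 8.95 with the nearest HC array at 8.61, a gap of 0.629 of the range.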

How the results depend on the processing

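The 7 member differences kept their direction, and their adjusted p stayed above 0.05, in 24 other settings each. The lowest adjusted p was 0.0532, for Cd82 in the fit restricted to probe sets of 1 gene. Leaving out 1 array at a time gave differences from −0.61 to −0.50 for Tspan2, −0.37 to −0.29 for Cd82 and −0.36 to −0.27 for Cd9, and from 3 to 6 lower members. Without HC replicates 2 and 6, 593 named genes were lower at an unadjusted p under 0.05, against 1151 with all arrays, and the cause was not tested. With the replicate block, Tspan2 was −0.56, Cd82 −0.32 and Cd9 −0.32, and 3 members were lower at an unadjusted p. Only numbers 2 and 6 occur in both groups, and arrays with the same number had deviation correlations of −0.21 and −0.04. The labels do not say what the replicate number stands for, and 2 such values cannot tell whether these arrays share anything else. Another running number in the sample titles, also unexplained, puts all HC arrays before all CSD arrays. An effect of that order, if any, cannot be told apart from the group. Cd9 minus Cd81 ranged from −0.29 to −0.20 in 14 settings. On every array each of the 7 genes lay at least 1.88 log2 units above the noise level.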
